A study of Mus musculus with 14 samples.

Results

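The comparison described here is that of regulatory T cells (Tregs) from the spleens of mice labelled Flox and WT for Il23r, the gene of the specific subunit of the receptor for interleukin-23. It uses 7 of the 14 RNA-seq libraries of the series, 3 labelled Flox and 4 labelled WT, chosen by their tissue and genotype labels. Polyadenylated RNA was measured as read counts per gene, and results are given for the 23975 genes on autosomes among the 27179 genes in the table. The WT mice were B6.IL23RWT FoxP3Cre-YFP, with 2 intact Il23r alleles, and the Flox mice were B6.IL23RFlox FoxP3Cre-YFP, with loxP-flanked Il23r on both chromosomes. Both groups carry the Foxp3-driven Cre recombinase with its yellow fluorescent protein (YFP), so that only cells that express Foxp3 are designed to lose the flanked allele. All mice carried a flank tumor grown from MC38 mouse colon carcinoma cells and were taken at the endpoint, so the spleens are those of tumor-bearing animals. The cells were sorted on Foxp3-YFP straight from the spleen, with no culture. Neither the sex and age of the animals nor which exons are flanked is stated in the sources used here. The labels do not say that replicates are separate mice, so a p-value speaks of the spread among these samples, which may be technical.

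Tregs are CD4 T cells that hold other lymphocytes in check. They are defined by the transcription factor Foxp3, display the IL-2 receptor chain CD25 and the inhibitory receptor CTLA-4, and in the spleen comprise resting cells, which circulate through lymphoid tissue, and activated effector cells. The IL-23 receptor pairs the Il23r chain with Il12rb1, a chain it shares with the IL-12 receptor. The kinases Jak2 and Tyk2 are bound to these chains and activate STAT3, and in T helper cells this pathway sustains the Th17 state. IL-23 receptor is known from activated T cells of barrier tissues and tumors, and little of it is found on resting lymphocytes.

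The 7 spleen libraries held between 4859099 and 10333892 counts, the smallest being WT 4 (library names such as WT 4 and Flox 1 repeat the labels). Levels below are CPM, read counts per 1000000 counts of the TMM-adjusted library, and 3 counts in 1 library correspond to 0.29 to 0.617 CPM. Pearson correlations of log2 CPM across genes lay between 0.831 and 0.844 among the Flox-labelled libraries and between 0.794 and 0.823 among WT 1, WT 3 and WT 4. WT 2 stood apart from the other WT-labelled libraries, with correlations of 0.753 to 0.783 to them and 0.773 to 0.789 to the Flox-labelled ones. Foxp3, read here as a check of the sort since it lies on the X chromosome, had a mean of 149 ± 10.7 CPM (SD, n = 3) over the Flox-labelled and of 195 ± 81.2 CPM (SD, n = 4) over the WT-labelled libraries. Xist, the RNA that silences an X chromosome in female cells, stood at 0.568 to 0.98 CPM in Flox-labelled and 76.6 to 464 CPM in WT-labelled libraries. Ddx3y, a gene on the Y chromosome, stood at 316 to 382 CPM in Flox-labelled libraries, at 33.0 CPM in WT 2 and at 0.338 to 0.686 CPM in the other WT-labelled ones. Genotype label and sex, as these genes show it, therefore cannot be told apart in any comparison of the spleen libraries below. Results are given for autosomal genes, which does not remove that confounding, since autosomal genes can differ between sexes too. Xist and Ddx3y are not given here for the tumor libraries, so whether the tumor contrast is confounded in the same way is not shown. Log2 fold changes of single genes in spleen are given with their values without WT 2.

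The targeted gene was read first, and it was barely detected. Il23r (NCBI Gene 209590, chromosome 6, 67422932 to 67491855 on GRCm38) had 1, 0 and 9 counts in Flox 1, 2 and 3, and 0, 0, 2 and 0 counts in WT 1 to 4. Of the 12 counts 9 lay in Flox 3, and 4 of the 7 libraries held none. Over the library totals the ratio of Flox-labelled to WT-labelled counts was 5.998, with a 95% interval of 1.28 to 56.3 that covers counting error only (two-sided exact permutation p = 0.371 over the 7 samples; the smallest that 3 against 4 can give is 0.0286). Without Flox 3 the totals were 1 and 2 counts. The counts cover the whole gene, so they do not show whether the flanked exons were lost, and their direction does not follow the labels. Groups are for that reason called Flox-labelled and WT-labelled. Within 10 Mb on either side of Il23r, a window chosen after values were seen, 50 genes were tested. An unadjusted p under 0.05 was found for 1 of them (2.0%, beside 6.78% of all autosomal genes), and in 2, both lower in the Flox-labelled libraries, the groups did not overlap (4.0%, beside 3.04% of all in that direction).

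The groups overlapped for the Treg genes Il2ra, Ikzf2, Ctla4 and Tgfb1 and for the resting T cell gene Tcf7. The high-affinity IL-2 receptor chain gene Il2ra (chromosome 2, 11642792 to 11693194) stood at 520, 741 and 644 CPM in Flox 1 to 3 and at 488, 621, 589 and 471 CPM in WT 1 to 4. The groups overlapped, and the log2 fold change of Flox-labelled against WT-labelled libraries was 0.23 ± 0.22 (SE), with a 95% interval of -0.29 to 0.74, and 0.28 without WT 2. Ikzf2, the gene of the Treg transcription factor Helios (chromosome 1, 69531207 to 69687351), stood at 2248, 1478 and 1710.5 CPM against 1897.5, 799, 1646 and 2732 CPM. WT 2 was the lowest of the 7 libraries for Ikzf2. Its log2 fold change was 0.04 ± 0.37, and it turned negative without WT 2 (-0.22) and without Flox 1 (-0.14). Ctla4, which encodes the inhibitory receptor CTLA-4 (chromosome 1, 60909025 to 60915832), stood at 96.8, 79.8 and 119 CPM against 41.3, 169, 54.9 and 239 CPM. All 3 Flox-labelled values lay inside the range of the WT-labelled ones, and the log2 fold change was -0.36 ± 0.65 (-0.20 without WT 2 and 0.15 without WT 4). Tcf7, the transcription factor gene of resting and memory T cells (chromosome 11, 52246527 to 52283383), stood at 983, 1308 and 1179 CPM against 1249, 1319, 1079 and 1129 CPM. Its groups overlapped, and its 95% interval was -0.45 to 0.35 around a log2 fold change of -0.05 ± 0.17 (-0.015 without WT 2). Tgfb1, the gene of the suppressive cytokine TGF-beta 1, had 0.08 ± 0.41 (0.17 without WT 2). The 95% intervals of Ctla4 (-1.86 to 1.15) and Tgfb1 (-0.86 to 1.02) reached beyond a 2-fold change.

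The suppressive cytokine Il10 and the Th1 transcription factor Tbx21 were low in most libraries and high in 1 library each. Il10 stood at 2.42, 0.7 and 13.8 CPM in Flox 1 to 3 and at 6.17, 43.5, 2.03 and 1.51 CPM in WT 1 to 4. Its log2 fold change was -1.23 ± 1.401 with all libraries and 0.79 without WT 2, the highest one. Tbx21 stood at 88.1, 1.54 and 0.758 CPM against 1.37, 3.09, 11.7 and 4.1 CPM. Flox 1 alone held the high value, and the log2 fold change of 2.57 ± 1.51 became -2.15 without it (2.38 without WT 2). For the 10 panel genes described (Il2ra, Ctla4, Ikzf2, Il12rb1, Stat3, Jak2, Tbx21, Il10, Tgfb1 and Tcf7) the Benjamini-Hochberg adjusted p of edgeR's quasi-likelihood test ran from 0.674 to 0.993. In 4 of the 10, Il2ra, Ikzf2, Stat3 and Tcf7, the 95% interval lay inside a 2-fold change in either direction.

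**Figure D1:**
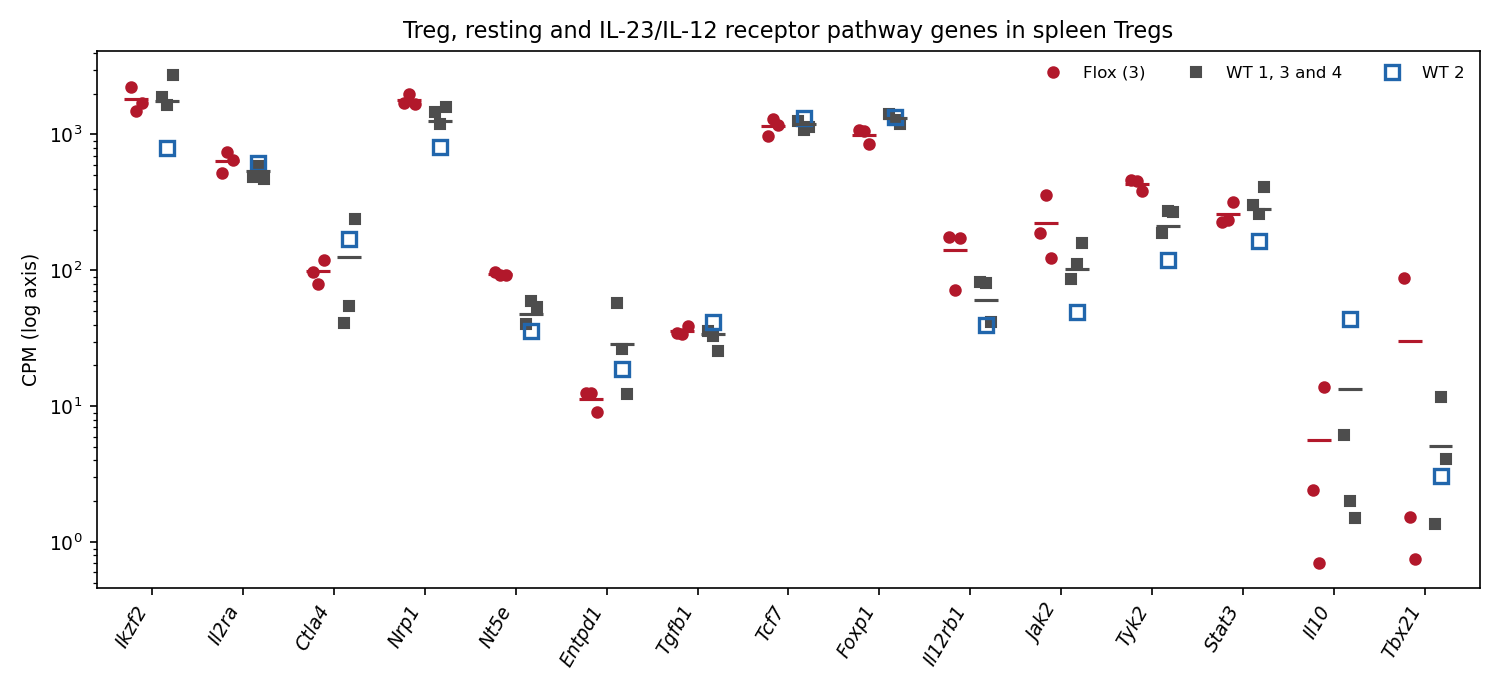
Levels of Treg, resting and IL-23 or IL-12 receptor pathway genes in each spleen library, in CPM on a log axis, with Flox-labelled libraries as red circles, WT 1, 3 and 4 as grey squares, WT 2 as open blue squares and a bar at each group's mean. The groups interleave for most genes, while Tyk2, Nt5e and Nrp1 lie higher and Foxp1 lies lower in each Flox-labelled library. The high mean of Tbx21 comes from Flox 1 at 88.1 CPM.

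Of the receptor pathway of IL-23 and IL-12, Il12rb1, Tyk2, Jak2 and Stat3 were measured well above the floor. All but Stat3 had a higher mean in the Flox-labelled libraries, without passing the test. The shared receptor chain gene Il12rb1 (chromosome 8, 70808360 to 70823542) stood at 177, 72.2 and 173 CPM in Flox 1 to 3 and at 81.8, 39.8, 80.3 and 41.4 CPM in WT 1 to 4. Flox 2 lay below WT 1 and WT 3, and the other Flox-labelled libraries lay above all WT-labelled ones. Its log2 fold change was 1.21 ± 0.49 (95% interval 0.07 to 2.35; 1.04 without WT 2). Tyk2, the gene of the kinase bound to Il12rb1 (chromosome 9, 21104068 to 21131393), stood at 461, 453 and 387 CPM against 188, 120, 276 and 271 CPM. All Flox-labelled libraries lay above all WT-labelled ones, with a log2 fold change of 1.02 ± 0.34 (0.80 without WT 2). Jak2, the kinase gene of the Il23r chain (chromosome 19, 29251803 to 29313095), stood at 187, 361 and 123 CPM against 86.9, 49.3, 111 and 160 CPM. WT 4 lay above Flox 3, and the log2 fold change was 1.14 ± 0.52 (0.88 without WT 2 and 0.61 without Flox 2, which held the highest value). Stat3, the gene of the transcription factor that these kinases activate, stood at 229, 234 and 316 CPM against 304, 164, 262 and 408 CPM. The groups overlapped, and the log2 fold change was -0.13 ± 0.36 (-0.34 without WT 2 and 0.091 without WT 4).

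Of the 24 genes on the pathway list, 17 were tested, with 11 higher and 6 lower in the Flox-labelled libraries and a median log2 fold change of 0.39, beside -0.05 over all 10268 autosomal genes tested. Without WT 2 the median was 0.22, beside -0.02 over all. Higher in the Flox-labelled libraries were 46.7% of all autosomal genes tested, and 48.7% without WT 2. These shares stand beside each list below. An unadjusted p under 0.05 in edgeR was found for 3 of the 17, Il12rb1 and Tyk2 among them, beside 6.78% of all autosomal genes. None of the 17 passed. Ptpn2, a phosphatase gene that restrains JAK and STAT signalling, stood at 297 to 723 CPM in Flox-labelled and 186 to 429 CPM in WT-labelled libraries (0.63 ± 0.41, and 0.42 without WT 2).

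Genes of 2 surface molecules with which Tregs suppress by way of extracellular nucleotides had log2 fold changes of opposite sign. Nt5e, the gene of the ectonucleotidase CD73 (chromosome 9, 88327609 to 88372089), stood at 96.9, 93.2 and 92.3 CPM in Flox 1 to 3 and at 40.6, 36.1, 59.5 and 53.7 CPM in WT 1 to 4. The groups did not overlap and the Flox-labelled values lay close together, with a log2 fold change of 0.99 ± 0.38 (0.86 without WT 2). Entpd1, the gene of the ectonucleotidase CD39 that acts before CD73, stood at 9.09 to 12.6 CPM against 12.3 to 57.4 CPM, a log2 fold change of -1.33 ± 0.63 (-1.51 without WT 2). Nrp1, the gene of the surface receptor neuropilin-1 (chromosome 8, 128358591 to 128505476), stood at 1696, 1972 and 1668 CPM against 1464, 807, 1194 and 1591 CPM. It was higher in each Flox-labelled library by 0.49 ± 0.24 on the log2 scale, and by 0.31 without WT 2, the lowest library. On the Treg identity and suppression list 24 of 25 genes were tested, with 11 higher, 13 lower and a median of -0.04, which became 16 higher and a median of 0.16 without WT 2. None passed the test. Of the 24, 2 did not overlap between groups in the higher direction, Nrp1 and Nt5e, beside 2.78% of all autosomal genes.

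Among genes of effector and tissue Tregs the largest separation was in Ccr2, the receptor gene of the monocyte-attracting chemokine CCL2 (chromosome 9, 124101918 to 124109140). It stood at 325, 297 and 295 CPM in Flox 1 to 3 and at 18.1, 36.2, 19.3 and 110 CPM in WT 1 to 4. The Flox-labelled libraries lay close together, and WT 4 stood above the other WT-labelled ones. The log2 fold change was 2.74 ± 0.67 (95% interval 1.18 to 4.30), 2.62 without WT 2 and 3.64 without WT 4, with an adjusted p of 0.674 in edgeR and of 0.0283 in DESeq2. Lgals1, the gene of galectin-1, stood at 57.6, 52.6 and 43.1 CPM against 36.8, 34.6, 37.4 and 28.3 CPM, without overlap (0.58 ± 0.39, and 0.56 without WT 2). Anxa2, an annexin gene, had 1.25 ± 0.54 (1.37 without WT 2), and Itgae, the gene of the epithelium-binding integrin chain CD103, 1.38 ± 0.60 (1.22 without WT 2) at 30.9 to 109 CPM against 14.4 to 38.9 CPM. Gata3 and Maf, the most abundant transcription factor genes of the list, differed little, with 0.16 ± 0.15 for Gata3 (0.03 without WT 2) and -0.23 ± 0.30 for Maf (-0.34 without WT 2). All 30 list genes were tested, with 18 higher, 12 lower and a median of 0.20 (0.13 without WT 2), and none passed.

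Resting T cell genes and homing receptors each had members in both directions. Of 20 resting or naive T cell genes 7 were higher and 13 lower (median -0.11, and -0.02 without WT 2). Foxp1, a transcription factor gene that keeps T cells quiescent, stood at 1071, 1067 and 855 CPM in Flox 1 to 3 and at 1425, 1350, 1289 and 1194 CPM in WT 1 to 4. Each Flox-labelled library lay below each WT-labelled one, with a log2 fold change of -0.40 ± 0.17 both with and without WT 2. The IL-7 receptor gene Il7r went the other way, at 221, 324 and 321 CPM against 170, 211, 224 and 197 CPM (0.53 ± 0.28, and 0.53 without WT 2). Of 22 chemokine receptor and homing genes tested 15 were higher and 7 lower, with a median of 0.12. Without WT 2, 13 of them were higher and the median was 0.21. The integrin genes Itgal (0.21 ± 0.42, and -0.096 without WT 2) and Itgb1 (-0.19 ± 0.43, and -0.24 without WT 2), the most abundant of the homing genes, had values that changed sign between settings.

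Across all autosomal genes the test passed none. Of 10935 genes tested, edgeR called 0 (0%) at an adjusted p under 0.05, and of the 10268 autosomal ones likewise 0 (0%). Limma voom also called 0, and DESeq2 called 114 of the autosomal genes (1.11%), with 69 higher and 45 lower in Flox-labelled cells. At an unadjusted p under 0.05 edgeR found 696 autosomal genes (6.78%), 434 of them higher and 262 lower, and 443 of these also had it without WT 2. In 285 autosomal genes (2.78%) all Flox-labelled libraries lay above all WT-labelled ones, and in 312 (3.04%) each lay below. The smallest adjusted p was 0.114 in edgeR, for Wdr19, an intraflagellar transport gene named after its values were seen. Wdr19 stood at 6.11, 10.2 and 14.1 CPM in Flox 1 to 3 and at 0.229 to 0.432 CPM in WT 1 to 4 (log2 fold change 4.87 ± 0.49, and 4.89 without WT 2). Replicate spread was wide, with a biological coefficient of variation of 0.721 and a median SE of 0.60 for log2 fold changes. The 95% interval lay inside a 2-fold change for 639 of the 10268 genes (6.22%), so for most genes these samples do not limit the difference to less than 2-fold.

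The genes named next are the 12 in each direction with the smallest p among abundant autosomal genes whose groups did not overlap. The choice used these same values, so they are a description. Highest in rank was Dtx4, a Deltex-family ubiquitin ligase gene (chromosome 19, 12466329 to 12502179), at 100, 115 and 33.7 CPM in Flox 1 to 3 and at 3.2, 4.42, 2.7 and 3.02 CPM in WT 1 to 4. The 4 WT-labelled libraries lay close together near 3 CPM, and Flox 3 held less than the other Flox-labelled libraries. The log2 fold change of Dtx4 was 4.63 ± 0.59, with an adjusted p of 0.148 in edgeR and a range of 4.32 to 5.01 with 1 library left out. Zfp747, a zinc finger gene (chromosome 7, 127372537 to 127376050), stood at 97.7, 55.9 and 14.2 CPM against 2.97, 2.47, 1.24 and 1.29 CPM (4.79 ± 0.78). Thrb, the thyroid hormone receptor beta gene (chromosome 14, 17659225 to 18040097), stood at 26.8, 44.9 and 45.1 CPM against 2.52, 2.21, 0.225 and 1.51 CPM (4.57 ± 0.78). The choice required WT 2 to lie on the WT-labelled side, so its place there is no check of that library. In these 3 genes the log2 fold changes without WT 2 were 4.78, 4.89 and 4.75.

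Smaller and tighter differences stood among the more abundant of these genes. Tacc1, the gene of a centrosome and microtubule protein (chromosome 8, 25154552 to 25256424), stood at 6996, 6783 and 7158 CPM in Flox 1 to 3 and at 4496, 4176, 4674 and 5527 CPM in WT 1 to 4. The Flox-labelled values spread by an SD of 188 CPM around 6979, and the log2 fold change was 0.56 ± 0.11 (95% interval 0.31 to 0.82; 0.49 without WT 2). Gtf2a1, the gene of a subunit of the general transcription factor TFIIA (chromosome 12, 91555262 to 91590487), stood at 3715, 3938 and 3692 CPM against 1627, 2073, 2569 and 2403 CPM. It had 0.80 ± 0.17, and 0.76 without WT 2. The tubulin folding cofactor gene Tbcd stood at 197, 431 and 227 CPM against 83.6, 73.4, 80.1 and 37.8 CPM (2.05 ± 0.44, and 2.06 without WT 2). Dhx57, an RNA helicase gene, stood at 51.3, 60.2 and 60.1 CPM against 11, 9.19, 16 and 12.1 CPM (2.25 ± 0.42, and 2.12 without WT 2), and both groups were narrow. The remaining genes higher in the Flox-labelled libraries were Pphln1, of a chromatin silencing complex, Gatc, of mitochondrial glutaminyl-tRNA formation, Zfyve26, of endosomes and lysosomes, the protein kinase A anchor Akap12 and the ubiquitin ligase adaptor Kbtbd8. Their log2 fold changes lay between 2.82 and 5.80 (2.69 and 5.98 without WT 2), and Kbtbd8 rested on Flox 2 at 189 CPM, beside 16 and 7.2 CPM in Flox 1 and 3 (5.80 with all libraries and 3.19 without Flox 2).

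Among genes lower in the Flox-labelled libraries, the smallest p was that of Itpkc, the gene of inositol-trisphosphate 3-kinase C, which takes part in calcium signalling downstream of the T cell receptor (chromosome 7, 27207170 to 27228617). It stood at 1.27, 0.84 and 1.7 CPM in Flox 1 to 3 and at 14.4, 18.2, 59.1 and 49.4 CPM in WT 1 to 4. The log2 fold change was -4.77 ± 0.78 (adjusted p = 0.488 in edgeR), and -5.00 without WT 2. Dap3, a gene of the small subunit of the mitochondrial ribosome (chromosome 3, 88920803 to 88951213), stood at 14.2, 17.6 and 19.2 CPM against 97.9, 110, 66.9 and 58.7 CPM (-2.29 ± 0.45, and -2.15 without WT 2). Susd6, the gene of a sushi domain membrane protein (chromosome 12, 80790532 to 80880833), stood at 73.8, 61.6 and 68.8 CPM against 168, 158, 154 and 154 CPM. Both groups of Susd6 values were narrow, with SDs of 6.14 and 6.41 CPM, and the log2 fold change was -1.22 ± 0.31 (-1.24 without WT 2). Slc4a10, a sodium bicarbonate transporter gene, stood at 0.692, 1.26 and 3.03 CPM against 6.97, 197, 102 and 113 CPM. WT 2 held its highest value and WT 1 its lowest WT-labelled one, and the log2 fold change was -5.96 ± 1.25 (-5.47 without WT 2). Rb1, the retinoblastoma gene that restrains entry into the cell cycle (chromosome 14, 73192858 to 73325951), stood at 19.6, 16.2 and 24.3 CPM against 149, 72.7, 46.2 and 54.8 CPM (-2.01 ± 0.56, and -2.07 without WT 2). Kpna1, the gene of a nuclear import adaptor, stood at 85.7, 109 and 156 CPM against 252, 213, 415 and 344 CPM (-1.38 ± 0.37, and -1.54 without WT 2).

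Lower as well were the zinc finger genes Zfp113 and Zfp597, the centriole gene Cep295, Cradd, whose product links to caspase-2, Dbt, of branched-chain amino acid breakdown, and Dennd4c, of Rab activation. Their log2 fold changes lay between -4.79 and -1.68 (-5.18 and -1.67 without WT 2). In Zfp113 and Dbt WT 2 was the lowest WT-labelled library, at 7.51 and 5.21 CPM beside 24.1 to 125 and 25.5 to 86.3 CPM in the others. Across the 24 genes adjusted p lay between 0.148 and 0.674 in edgeR, and between 0.275 and 0.710 without WT 2. DESeq2, run on the counts from which the 24 were chosen, called 22, all but Tacc1 and Gtf2a1.

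**Figure D2:**
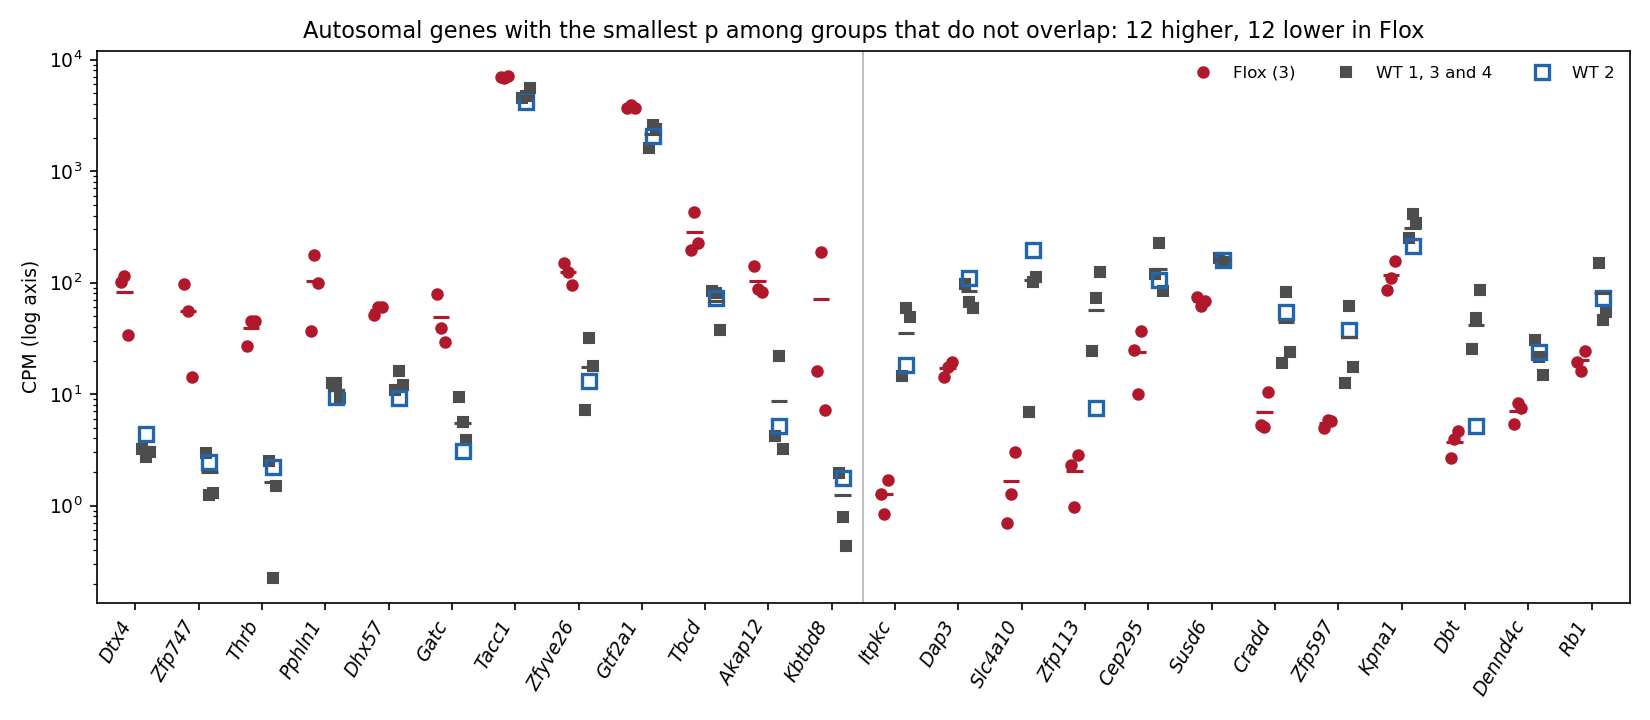
Levels in each spleen library, in CPM on a log axis, of the 12 higher (left) and 12 lower (right) autosomal genes with the smallest p among those whose groups do not overlap, with symbols as in the plot of Treg genes and a bar at each group's mean. The choice required WT 2 to lie on the WT-labelled side, so its place there is no check of that library. WT 2 is the lowest WT-labelled library in Zfp113 and Dbt.

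Cell cycle genes had members in both directions, with a median above that of all autosomal genes. All 40 genes were tested, with 22 higher (55.0%, beside 46.7% of all) and 18 lower in the Flox-labelled libraries. Their median log2 fold change was 0.36 (0.47 without WT 2), beside -0.05 over all. There were 5 members that did not overlap in the higher direction, beside 2.78% of all autosomal genes, and 0 in the lower direction. They were the replication genes Mcm10 and Mcm6, the cyclin genes Ccnb1 and Ccne2, and Ube2c, a ubiquitin-conjugating gene of mitotic exit. Mcm10 stood at 58.5, 129 and 40.3 CPM in Flox 1 to 3 and at 2.29, 11.9, 1.92 and 1.73 CPM in WT 1 to 4. WT 2 was the highest WT-labelled library, and the log2 fold change of 4.07 ± 0.90 was 5.22 without it. Mcm6 stood at 57.2, 42.6 and 42.6 CPM against 24, 35.8, 26.1 and 29.3 CPM (0.72 ± 0.41, and 0.82 without WT 2), and Ccnb1 at 2.66 to 5.42 CPM against 1.24 to 2.52 CPM (1.14 ± 0.44, and 0.95 without WT 2). Bub1b, a spindle checkpoint kinase gene, stood at 113, 174 and 4.45 CPM against 10.6, 2.47, 1.92 and 2.8 CPM, so Flox 3 lay below WT 1. The proliferation marker Mki67 stood at 40, 36.7 and 40.3 CPM against 26.4, 22, 45.4 and 322 CPM. WT 4 alone was high, and the log2 fold change of -1.41 ± 1.00 became 0.32 without it (-1.77 without WT 2). Top2a, the DNA topoisomerase gene of dividing cells, was also high in WT 4, at 263 CPM, a level reached by Flox 3 at 264 CPM.

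Type I interferon response genes leaned lower at low levels. Of 30 genes 8 were higher and 22 lower in the Flox-labelled libraries, with a median of -0.27 both with and without WT 2. The ubiquitin-like modifier gene Isg15 stood at 0.692, 1.26 and 1.23 CPM in Flox 1 to 3 and at 2.52, 1.94, 2.03 and 3.45 CPM in WT 1 to 4 (-1.20 ± 0.43, and -1.32 without WT 2). Ifit1, which encodes an RNA-binding antiviral protein, stood at 5.65, 4.48 and 4.83 CPM against 8.12, 10.8, 8.34 and 8.85 CPM (-0.85 ± 0.38, and -0.77 without WT 2). Without overlap in the lower direction were 3 of the 30 members, beside 3.04% of all autosomal genes. They were Isg15, Ifit1 and the oligoadenylate synthetase gene Oas1a, with 75.3 CPM in WT 3. Mx2 stood at 73.6 CPM in WT 1 and at 0.474 to 1.68 CPM in the other 6 libraries. The 2 most abundant members, Trim30a (0.34 ± 0.42, and 0.12 without WT 2) and the RNA sensor gene Ddx58 (0.53 ± 0.38, and 0.51 without WT 2), lay on the other side.

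Survival and death genes were lower in 17 and higher in 7 of 24 tested members, with a median of -0.43 (-0.46 without WT 2). Against that direction, Bcl2l1, which encodes the survival protein BCL-XL (chromosome 2, 152758732 to 152833803), stood at 1770, 1498 and 1630.5 CPM in Flox 1 to 3 and at 1250.3, 1133, 937 and 1083 CPM in WT 1 to 4. All Flox-labelled libraries lay above all WT-labelled ones, with a log2 fold change of 0.57 ± 0.16 (95% interval 0.19 to 0.94) and the same value without WT 2. Mcl1, another survival gene, overlapped at 387, 569 and 875 CPM against 652, 928, 840 and 985 CPM (-0.48 ± 0.31, and -0.46 without WT 2). Bbc3, the gene of the death-inducing protein PUMA, stood at 140 CPM in WT 2 and at 1.82 to 10.8 CPM in the other 6 libraries. Its log2 fold change was -3.69 ± 1.61 with WT 2 and -0.82 without it.

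Genes of the immediate early and heat shock response, which handling of cells can induce, were lower in 19 and higher in 4 of 23 members. Their median was -0.30, and -0.14 without WT 2, where 8 members were higher. Fos stood at 179, 234 and 218 CPM in Flox 1 to 3 and at 354, 407, 320 and 285 CPM in WT 1 to 4 (-0.70 ± 0.26, and -0.62 without WT 2). Fosb, another Fos gene of the AP-1 family, stood at 4.27 to 10.2 CPM against 10.4 to 49.5 CPM. The heat shock gene Hspa1b stood at 258 to 298 CPM against 310 to 422 CPM, and both genes were without overlap. Of 30 cytoplasmic ribosomal protein genes 29 were lower and 1 higher, with a median of -0.22. Without WT 2, 24 were lower and 6 higher, with a median of -0.05, so the direction stayed while most of the size went with 1 library.

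Other pathways had members in both directions. T cell receptor and NF-kB genes were higher in 20 and lower in 12 of 32 members, with a median of 0.07 (0.00 without WT 2). The kinase gene Prkcq, which acts below the T cell receptor, stood at 146, 193 and 205 CPM in Flox 1 to 3 and at 242, 486, 235 and 205 CPM in WT 1 to 4, and its log2 fold change of -0.69 ± 0.38 was -0.35 without WT 2. Th1 and cytotoxic genes were higher in 6 and lower in 13 of 19 (median -0.34, and -0.47 without WT 2), with the interferon-gamma receptor chain gene Ifngr1 at 60.1 to 66.1 CPM against 69.4 to 143 CPM (-0.56 ± 0.41, and -0.69 without WT 2). TGF-beta and SMAD genes were higher in 12 of 20, with the receptor gene Tgfbr3 at 47.3, 64.2 and 5.4 CPM against 3.2, 13.7, 6.42 and 2.59 CPM (2.58 ± 0.92, and 3.22 without WT 2). Ltbp1, of latent TGF-beta storage, had 0 to 0.14 CPM in Flox-labelled libraries, 58.5 CPM in WT 3 and 1.03 to 2.03 CPM in the other WT-labelled ones. Lipid and sterol genes were higher in 13 and lower in 13 of 26, with the fatty acid elongase gene Elovl6 at 37.3 to 61.2 CPM against 4.32 to 26.2 CPM (2.19 ± 0.72, and 1.94 without WT 2) and the desaturase gene Scd2 at 7.38 to 11.7 CPM against 16.2 to 78.8 CPM (-1.90 ± 0.70, and -2.18 without WT 2). Neither pair of groups overlapped, and the directions were opposite.

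The remaining state and pathway lists had medians between -0.16 and 0.18. Genes of Th17, Th2 and follicular helper cells were higher in 8 of 12 (median 0.18, and 0.08 without WT 2). Interferon-gamma and MHC class I genes were higher in 14 of 27 (0.05, and 0.01 without WT 2). Nuclear oxidative phosphorylation genes were higher in 13 of 27 (-0.02), and without WT 2 in 17 (0.04). Glycolysis and hypoxia genes were higher in 9 of 21 (-0.06, and -0.01 without WT 2). IL-2 and STAT5 genes were higher in 7 of 18 (-0.11), and without WT 2 in 9 (0.01). Unfolded protein response genes were higher in 7 of 21 (-0.16), and without WT 2 in 10 (-0.05). Across all lists 0 members passed edgeR's test.

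**Figure D3:**
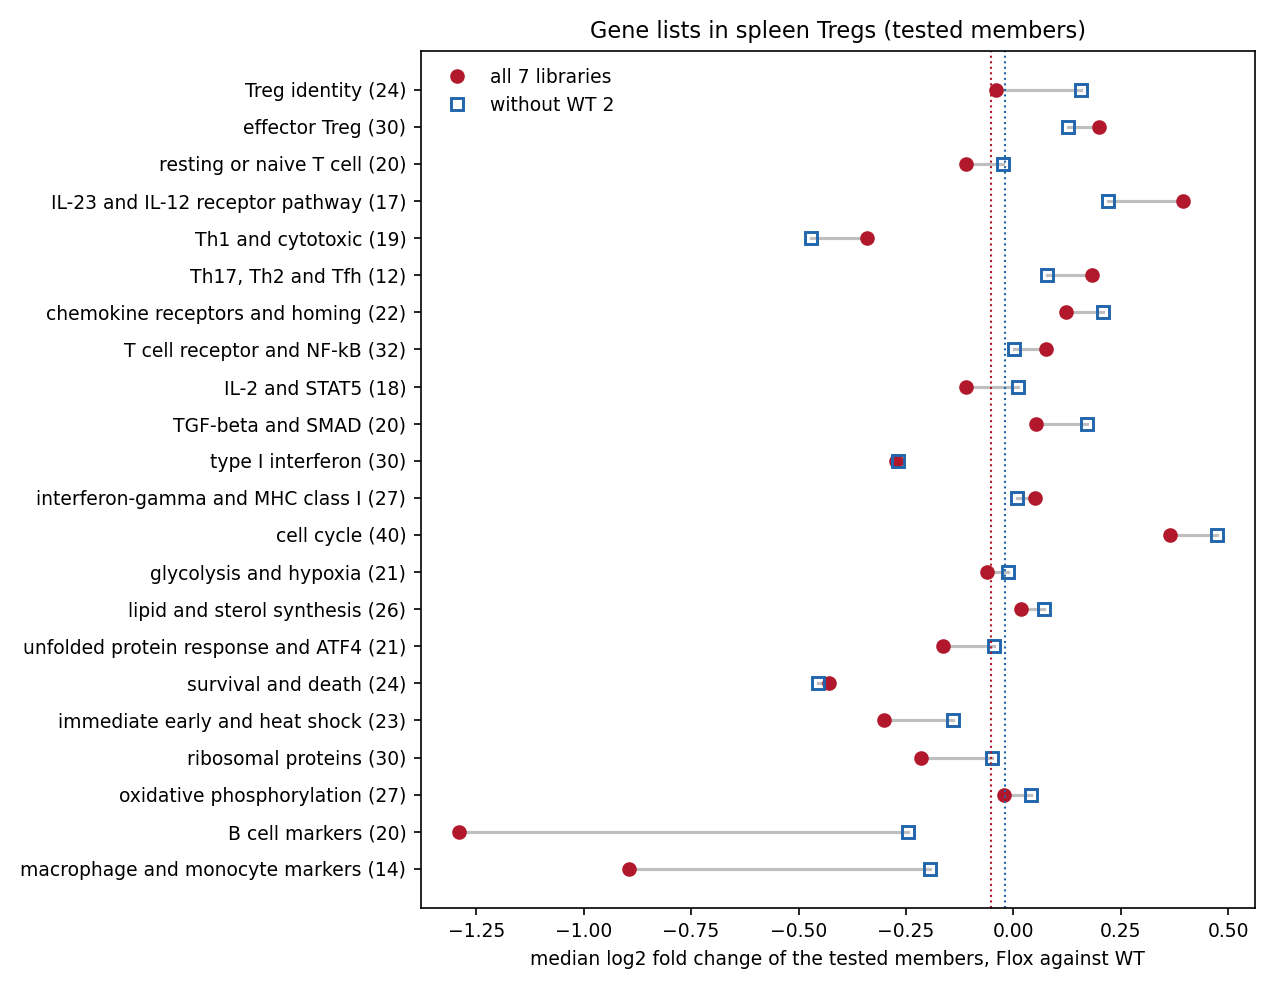
Median log2 fold change of Flox-labelled against WT-labelled spleen libraries over the tested members of each gene list (number tested in parentheses), with all 7 libraries (red circles) and without WT 2 (open blue squares); dotted lines mark the median over all autosomal genes in each fit. B cell markers move from -1.29 to -0.25 and macrophage markers from -0.89 to -0.20 when WT 2 is left out, while type I interferon genes stay at -0.27.

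Markers of other cell types were checked because the Treg sort could hold some of their RNA, and here WT 2 differed from the rest. The summed level of 22 B cell markers was 804, 651 and 782 CPM in Flox 1 to 3 and 1238, 3132, 1449 and 922 CPM in WT 1 to 4. Every WT-labelled library lay above every Flox-labelled one, and WT 2 held more than any other. WT 2 was the highest of the 7 libraries for 18 of the 22. The defining B cell genes Ms4a1 and Cd79b stood at 755 and 48 CPM in WT 2, beside 49.6 to 194 and 4.36 to 9.8 CPM in the other 6. Of 20 B cell markers tested 17 were lower in the Flox-labelled libraries, with a median of -1.29, and without WT 2 the median over 19 was -0.25 with 8 higher. Cd22, the gene of a B cell inhibitory receptor, stood at 6, 7.7 and 3.98 CPM against 10.29, 27.4, 34.4 and 84.6 CPM (-2.73 ± 0.79, and -2.89 without WT 2). The B cell transcription factor gene Ebf1 stood at 193, 177 and 195 CPM against 637, 1041, 535 and 186 CPM, so WT 4 overlapped the Flox-labelled libraries, and its -1.67 ± 0.52 was -1.28 without WT 2.

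Myeloid and red cell markers showed the same library apart. Summed neutrophil markers stood at 6.57, 8.26 and 4.83 CPM in Flox 1 to 3 and at 27.7, 76.1, 8.22 and 10.6 CPM in WT 1 to 4, with the calprotectin gene S100a9 at 36.2 CPM in WT 2 and at most 1.96 CPM elsewhere. Erythroid and platelet markers stood at 297, 114 and 332 CPM against 138, 669, 69.3 and 195 CPM, led by the alpha globin gene Hba-a2. Macrophage and monocyte markers stood at 426, 350 and 331 CPM against 387, 669, 348 and 381 CPM, and the macrophage gene Adgre1 alone gave 220 CPM in WT 2 and 0.56 to 5.15 CPM elsewhere. Cd68, a lysosomal gene of macrophages, was instead high in WT 1, at 26.4 CPM beside 0.14 to 3.49 CPM in the other 6. Summed plasma cell markers were high in WT 4, at 241 CPM beside 29.4 to 83.5 CPM, of which 187 CPM was Prdm1, a gene that effector Tregs also express. The 10 T cell and Treg markers summed to 6806, 6519 and 5418 CPM against 6151, 4124, 5681 and 7890 CPM, lowest in WT 2. The low sum came mainly from Ikzf2 and Cd28, at 799 and 724 CPM in WT 2 and lowest there. In WT 2, Cd3e (301 CPM), Il2ra (621 CPM), Trac (517 CPM) and Ctla4 (169 CPM) lay within the range of the other libraries, and Tnfrsf18 (43.0 CPM) was highest there. Foxp3, not among the 10, was also highest in WT 2, at 304 CPM. In bulk RNA, fewer cells of a type and less RNA per cell cannot be told apart, and the part of these other-cell transcripts in the results above was not tested beyond leaving WT 2 out.

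**Figure D4:**
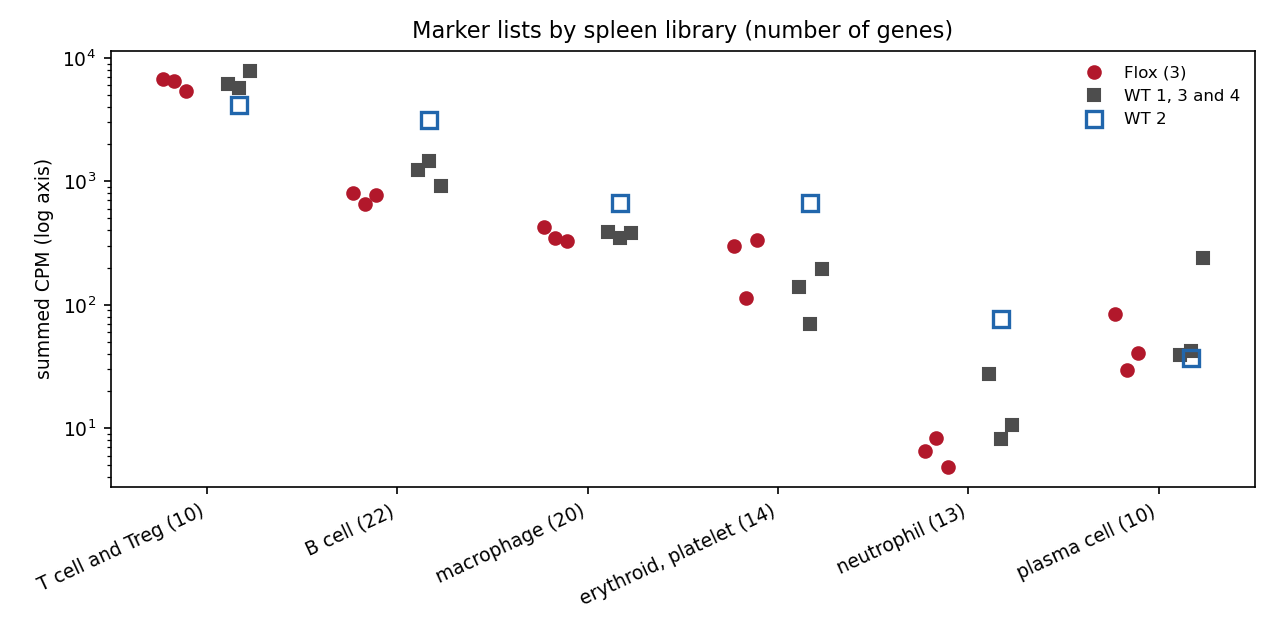
Summed CPM (log axis) of marker genes of T cells and Tregs and of 5 other cell types in each spleen library, with Flox-labelled libraries as red circles, WT 1, 3 and 4 as grey squares and WT 2 as open blue squares. WT 2 is the highest library for B cell (3132 CPM), macrophage (669 CPM), erythroid (669 CPM) and neutrophil (76.1 CPM) markers and the lowest for the sum of T cell and Treg markers (4124 CPM), in which Ikzf2 and Cd28 weigh most.

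Markers of other tissues were at 0 for some members and measured for others. Markers of stroma summed to 63 to 204 CPM, mostly from Pecam1, and no spleen library had a count of Pdgfra, Cdh5 or Ccl19. Acta2, the gene of smooth muscle actin, stood at 31.4 CPM in Flox 3, 15.3 CPM in WT 4 and 5.18 CPM in WT 3, and below 1 CPM in the other 4. Epithelial markers summed to 342 to 891 CPM, of which Lgals4 gave 336 to 858 CPM, while the keratin genes Krt8, Krt19 and Krt20 had no count in any spleen library. Epcam, an epithelial adhesion gene, stood at 4.24 to 26.4 CPM in all 7 libraries. Vil1, the gene of villin, stood at 8.81 to 20.5 CPM in Flox 3 and WT 1 to 3, and Cdh1, the gene of E-cadherin, at 20.6 CPM in Flox 1 alone. Dendritic cell markers summed to 15.4 to 99.1 CPM and NK and CD8 T cell markers to 12 to 68.9 CPM. The part of these transcripts in the results was not tested.

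Transcripts present in 1 library and nearly missing from the others occurred in every spleen library. Autosomal genes at 20 CPM or more in 1 library and at least 10 times the highest of the other 6 numbered 43, 59 and 41 in Flox 1 to 3 and 36, 54, 42 and 46 in WT 1 to 4. These genes took 0.680% of the counts of WT 2 and 0.181 to 0.347% of those of the other libraries. The highest in WT 2 were the zinc finger genes Zfp867 (390 CPM, beside 1.61 to 3.15 CPM elsewhere) and Zfp97 (221 CPM), Ccn4, a gene of a secreted matrix-associated protein (270 CPM), Tti1, of the assembly of mTOR-family kinases (247 CPM), R3hcc1l (234 CPM) and Adgre1. Without WT 2 the log2 fold change of Zfp867 went from -5.42 to -0.10, that of Tti1 from -2.81 to -0.15, and that of Ccn4 from -2.73 to 2.46. WT 2 was the highest of the 7 libraries for 19.0% of tested autosomal genes, and each other library for 11.2 to 16.3%. Of 10022 autosomal genes tested with and without WT 2, 87.2% kept the sign of their log2 fold change.

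The same contrast in Tregs sorted from the tumors, with 3 Flox-labelled and 4 WT-labelled libraries, gave other values for most of these genes. Of the 24 genes with the smallest p in spleen 21 were tested in tumor, and 7 of the 21 had the same sign there, beside 50.2% of the 9332 autosomal genes tested in both tissues. Dtx4 stood at 1.02 to 1.57 CPM in Flox-labelled and 0.738 to 2.15 CPM in WT-labelled tumor libraries, so the high level of the spleen Flox-labelled libraries had no counterpart in any tumor library. Itpkc was low in all 7 tumor libraries, at 1.02 to 3.14 CPM. Tacc1 (0.29 ± 0.23), Gtf2a1 (0.17 ± 0.50), Dap3 (-3.22 ± 1.57) and Dbt (-3.16 ± 1.37) were among the 7 with the same sign. The tumor value of Dap3 rested on the tumor library WT 4, at 422 CPM beside 8.04 to 15.9 CPM in the other 6, and that of Dbt mainly on the tumor library WT 3, at 62.8 CPM beside 1.02 to 15.9 CPM. Ccr2 was high in both tumor groups, at 1816 to 4092 CPM in Flox-labelled and 2894 to 6006 CPM in WT-labelled libraries (-0.38 ± 0.38). Jak2, Il12rb1 and Tyk2, higher in the spleen Flox-labelled libraries, had -1.26 ± 0.41, -0.81 ± 1.07 and -0.65 ± 0.71 in tumor. The difference between the tissues was 2.38 ± 0.66 for Jak2, with an adjusted p of 0.425 in edgeR's interaction test.

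Of 11261 autosomal genes in that test of the difference edgeR called 0 (0%), with 1220 at an unadjusted p under 0.05 and a smallest adjusted p of 0.395 (DESeq2 called 157 genes, the sex chromosomes included). The 3 autosomal genes with the smallest p for the difference were Dtx4 (4.63 ± 0.77), Itpkc (-4.56 ± 0.87) and Ankrd55. Ankrd55, an ankyrin-repeat gene, was alike in the spleen groups, at 2.31 to 9.85 CPM against 1.49 to 13.2 CPM (-0.09 ± 0.90, and -0.43 without WT 2), and stood at 67.6 to 185 CPM against 0.861 to 1.19 CPM in tumor. Spleen and tumor libraries may come from the same mice, which the labels do not say, and the tumor CPM were scaled over all 14 libraries.

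**Figure D5:**
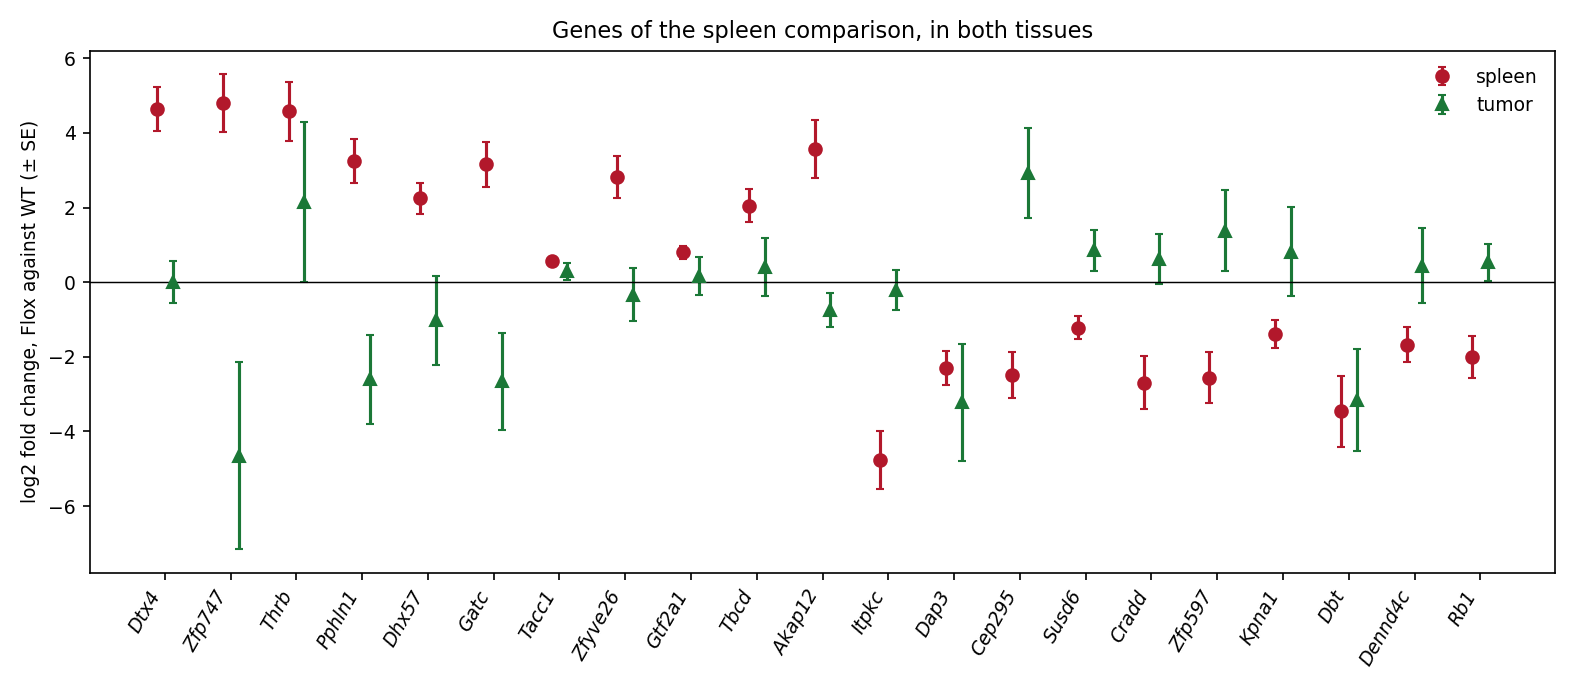
Log2 fold change (± SE) of Flox-labelled against WT-labelled libraries in spleen (red circles) and tumor (green triangles) for the 21 of 24 genes of the spleen comparison that were tested in both tissues. The genes were chosen for a small p and groups without overlap in spleen, and the tumor values lie on the same side of 0 for 7 of the 21.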

How the data were processed

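The authors deposited 1 table of read counts per gene for all 14 libraries, by NCBI Gene ID. The genome build was mm10, per the submitters' processing notes, and no aligner, counter, annotation or strand setting is named in the sources used here. Per the labels' protocols, cells were sorted on YFP and libraries made from very small amounts of RNA. Symbols and chromosomes came from RefSeq on GRCm38.p6, which matched 25275 of 27179 IDs, and the 1904 unmatched IDs stayed in the fit.

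The 3 Flox-labelled and 4 WT-labelled spleen libraries were fitted with edgeR 4.0.16 in R 4.3.3 (TMM scaling, filterByExpr, quasi-likelihood F test) on the counts as deposited. P-values were adjusted by Benjamini-Hochberg over all 10935 genes tested, with a threshold of 0.05. CPM are counts over TMM-scaled library sizes, and an SE is the log2 fold change over the square root of its F. The difference between tissues was the interaction term over 14 libraries. Il23r was compared by an exact permutation test. Alternatives were DESeq2 1.42.0, limma 3.58.1 voom with quality weights, RLE scaling, other filters, a fit of autosomal genes, a fit of all 14 libraries, a replicate block, and each library left out. Scripts were tested on simulated counts.

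The comparison, the genes and the lists were chosen with earlier results of these data known. Named were a panel of 12 genes including Il23r, the 12 genes in each direction with the smallest p (average log2 CPM of at least 4, no overlap between groups with and without WT 2), the 3 with the smallest p for the difference between tissues, the 6 highest in WT 2 only, and in each list described the 2 most abundant and up to 2 with the smallest p. After all values were computed, naming within lists was kept to 16 of the 30 lists. In the other 14 the rule gives 42 further genes, of which 22 changed sign in at least 1 setting. Another 12 list members without overlap, single marker genes, Wdr19 and the window around Il23r were chosen after values were seen. Some genes that the rule gives, 1 of the panel included, are not reported here.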

Additional observations from a re-analysis of the deposited data

Results flagged for a closer look

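In 21 of 108 genes examined, 1 WT-labelled spleen library lay so far from the other 3 that the gap to its nearest neighbour passed Dixon's 95% limit for 4 samples, read as a share of the group's whole range. For normally distributed values chance alone passes this limit in about 1 of 20 groups. CPM were used on the linear scale, where a normal distribution was not tested, so the 21 are not set against that share. The genes high in WT 2 only were chosen for such a gap. The library apart was WT 2 in 13 genes, WT 3 in 4, WT 1 in 3 and WT 4 in 1.

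In WT 2 the share was 0.889 for Il10 (43.5 CPM, nearest 6.17), 0.869 for Prkcq (486 CPM, nearest 242), 0.945 for Mcm10 (11.9 CPM, nearest 2.29) and 0.938 for Bbc3 (140 CPM, nearest 10.8). It was 0.8292 for Itgal, where WT 2 was low (225 CPM, nearest 728). Among myeloid markers it was 0.979 for Adgre1, 0.962 for S100a9 and 0.872 for S100a8, all high in WT 2. Adgre1 was also among the genes chosen as high in WT 2 only. Among the others so chosen, the share was 0.996 for Zfp867, 0.990 for Ccn4, 0.964 for Tti1, 0.916 for R3hcc1l and 0.964 for Zfp97.

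WT 3 was the high library for Akap12 (0.894; 21.9 CPM, nearest 5.21), Ltbp1 (0.983; 58.5 CPM, nearest 2.03) and Oas1a (0.971; 75.3 CPM, nearest 8). For Il23r the share was 1.0, since WT 3 held 2 counts and the other WT-labelled libraries none. WT 1 was the high library for Mx2 (0.986; 73.6 CPM, nearest 1.68), Bub1b (0.898; 10.6 CPM, nearest 2.8) and Cd68 (0.910; 26.4 CPM, nearest 3.49). WT 4 was the high library for Mki67 (0.922; 322 CPM, nearest 45.4).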

How the results depend on the processing

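The 0 genes edgeR called in spleen (696 autosomal genes at an unadjusted p under 0.05) became 124 in DESeq2, 1 (Wdr19) with a filter of 5 CPM in 3 samples and 4 (Dtx4, Wdr19, Xist and Itpkc) with all 14 libraries in 1 fit. With 1 library left out edgeR called 0 to 1, the 1 being Ddx3y without WT 2. The number called for the difference between tissues was 157 in DESeq2 and 0 to 1 with 1 library left out. Genes whose groups did not overlap numbered 597, and 980 to 1428 with 1 library left out, where fewer libraries have to separate. Intervals inside a 2-fold change numbered 639, and 226 to 605 with 1 left out. With limits of 50 CPM and 20 times, genes high in 1 library only numbered 13, 15 and 5 in Flox 1 to 3 and 11, 21, 5 and 13 in WT 1 to 4.

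Of 107 named genes tested, 85 kept their sign in every setting run. Groups without overlap largely fix the sign in advance, in the 24 chosen for it and in the list members named without overlap. The 85 are therefore no measure of stability. Among the 107, 26 passed in DESeq2 and 2 in the fit of all 14 libraries. In voom the sign turned for Ankrd55 (0.23), Ccn4 (0.23), Ctla4 (0.31), Ctss (0.020) and Dgat1 (0.073). The labels give replicate numbers, and samples with the same number did not deviate together (correlations of -0.03 to 0.01, and no Flox-labelled sample correlated best with its own number). With the replicate number as a block edgeR called 0 genes, and the sign turned for Ankrd55 (0.73), Ccn4 (0.75), Ctla4 (0.45), Dgat1 (0.34), Ifngr2 (-0.16), Maf (0.018), Mki67 (0.39), Stat3 (0.12), Tbx21 (-0.45) and Tgfb1 (-0.031).

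With 1 library left out, log2 fold changes that turned sign ranged from -0.53 to 0.45 for Ankrd55, -0.12 to 0.29 for Apoe, -0.060 to 0.29 for Btg2, -4.67 to 2.46 for Ccn4, -0.085 to 0.50 for Cd28 and -0.68 to 0.15 for Ctla4. They ranged from -0.20 to 0.26 for Ctss, -0.37 to 0.19 for Dgat1, -0.42 to 0.74 for Ifngr2, -0.22 to 0.32 for Ikzf2, -3.07 to 0.79 for Il10 and -0.10 to 0.35 for Itgal. For Itgb1 the range was -0.52 to 0.14, for Lck -0.016 to 0.38, for Maf -0.36 to 0.023, for Mki67 -1.77 to 0.32, for Nrros -0.49 to 0.16 and for R3hcc1l -2.99 to 0.042. For Stat3 it was -0.34 to 0.091, for Tbx21 -2.15 to 3.41, for Tcf7 -0.14 to 0.064 and for Tgfb1 -0.037 to 0.17. The cause of these turns was not tested. Depth limits Il23r, with 12 counts in all, and genes near the floor of 3 counts.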
